A study of Mus musculus with 10 samples.

Results

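The genes described here are 29 symbols that cover the route from acetyl-CoA units to cholesterol and the handling of sterols in the cell: 8 symbols for the mevalonate steps, 11 for the steps between squalene and cholesterol, 5 for the sensing and control of the pathway, and 5 for movement, uptake and efflux. A probe set was taken as belonging to a gene where the platform annotation gave it exactly 1 of these symbols. That left 28 genes with 64 probe sets, out of 18193 named genes and 45037 probe sets on the array. Acat2 is not analysed here because no probe set carried that symbol alone.

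The RNA came from mouse skin keratinocytes, the main cell type of the epidermis, either grown as primary cultures or freshly isolated, and was hybridised to Affymetrix whole-genome expression arrays. The groups were 3 cultured RhoA-KO arrays, 3 cultured control arrays, 2 fresh RhoA-KO arrays and 2 fresh control arrays. RhoA is a small GTPase that organises actin and contractility, and the study asked which transcripts differ without it. The RhoA-KO cells carried the genotype RhoA fl/fl K5 cre, and the controls, which the titles call Wildtype, carried RhoA fl/+ K5 cre. All groups thus held the Cre recombinase and a floxed allele, so the control cells are heterozygous carriers and not cells without any recombination. The K5 promoter, from the keratin 5 gene, is active in basal keratinocytes. No age, sex or strain was given in the labels used here. The arrays are called biological replicates with no animal named, so each p-value measures the spread between these samples, and the number of arrays limits the precision.

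Cholesterol is made from acetyl-CoA through mevalonate, which is built up to farnesyl diphosphate. Squalene synthase commits that intermediate to sterols, while a side branch yields geranylgeranyl diphosphate, a lipid that is attached to small GTPases, RhoA among them. The transcription factor SREBP2, with its escort protein SCAP, activates nearly the whole set when membrane sterol is low, and the INSIG proteins hold the complex back when sterol is high. Oxidised sterols act the other way through the LXR receptors, which induce the efflux pumps ABCA1 and ABCG1. In epidermis, cholesterol is one of the barrier lipids of the cornified layer, and keratinocytes make much of it themselves.

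The promoters of 5 of these genes are shown because they include members from the low, the middle and the opposite end of the differences described next. Each sequence is the 250 bases before a transcription start, from RefSeq on GRCm38.p6, read 5′ to 3′ along the gene's own strand. Capitals mark the sterol regulatory element TCACNCCAC and the CCAAT box in either orientation (CCAAT or ATTGG), and no 2 marked matches overlap. Hmgcs1 lies on the plus strand at chr13:119690101-119690350, Mvd on the minus strand at chr8:122443423-122443672, Msmo1 on the minus strand at chr8:64733579-64733828, Insig1 on the plus strand at chr5:28071162-28071411 and Abca1 on the minus strand at chr4:53159896-53160145.
Hmgcs1: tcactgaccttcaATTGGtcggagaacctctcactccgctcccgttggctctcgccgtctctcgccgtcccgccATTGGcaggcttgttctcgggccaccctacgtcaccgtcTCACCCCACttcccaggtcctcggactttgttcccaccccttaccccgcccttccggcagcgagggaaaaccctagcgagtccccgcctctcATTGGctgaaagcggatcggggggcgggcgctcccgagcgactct
Mvd: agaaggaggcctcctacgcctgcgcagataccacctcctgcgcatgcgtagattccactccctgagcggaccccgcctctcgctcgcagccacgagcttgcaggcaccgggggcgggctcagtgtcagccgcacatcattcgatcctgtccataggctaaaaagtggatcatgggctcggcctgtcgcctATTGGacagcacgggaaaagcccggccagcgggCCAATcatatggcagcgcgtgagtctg
Msmo1: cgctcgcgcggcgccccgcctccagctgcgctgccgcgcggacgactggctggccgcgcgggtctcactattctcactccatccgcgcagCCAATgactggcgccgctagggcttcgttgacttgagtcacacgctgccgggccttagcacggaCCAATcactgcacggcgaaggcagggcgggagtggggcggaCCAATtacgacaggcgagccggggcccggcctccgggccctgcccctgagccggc
Insig1: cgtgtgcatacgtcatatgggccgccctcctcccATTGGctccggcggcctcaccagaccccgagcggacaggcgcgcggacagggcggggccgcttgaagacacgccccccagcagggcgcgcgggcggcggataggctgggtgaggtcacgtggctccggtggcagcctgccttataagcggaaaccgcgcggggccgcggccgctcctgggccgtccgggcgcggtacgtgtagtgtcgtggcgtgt
Abca1: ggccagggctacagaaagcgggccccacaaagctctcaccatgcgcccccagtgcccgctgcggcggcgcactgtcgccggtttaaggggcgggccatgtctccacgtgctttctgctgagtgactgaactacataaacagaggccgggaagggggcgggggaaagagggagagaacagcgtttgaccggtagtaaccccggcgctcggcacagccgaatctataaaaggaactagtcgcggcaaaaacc

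Promoter windows were found for 23 of the 29 symbols, 31 windows in all. Fdps, Fdft1, Sqle, Stard4, Npc1 and Abcg1 had no window, so their promoters were not searched. The element TCACNCCAC, searched on both strands, was found in 1 of the 31 windows, that of Hmgcs1, where it starts 137 bases before the transcription start. Of all 32851 windows in the RefSeq set, 1.05% held it. CCAAT was found in 21 of the 31 windows (67.7%), those of 20 genes, against 33.8% of all windows. The GC box GGGCGG was found in 24 of the 31 (77.4%), against 32.7% of all windows, and the E-box CACGTG in 6 (19.4%), against 6.02%. The Hmgcs1 window holds 3 CCAAT boxes besides the element, and the Abca1 window holds neither of the marked motifs. These are matches of letters in a window, not evidence of binding.

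**Figure D1:**
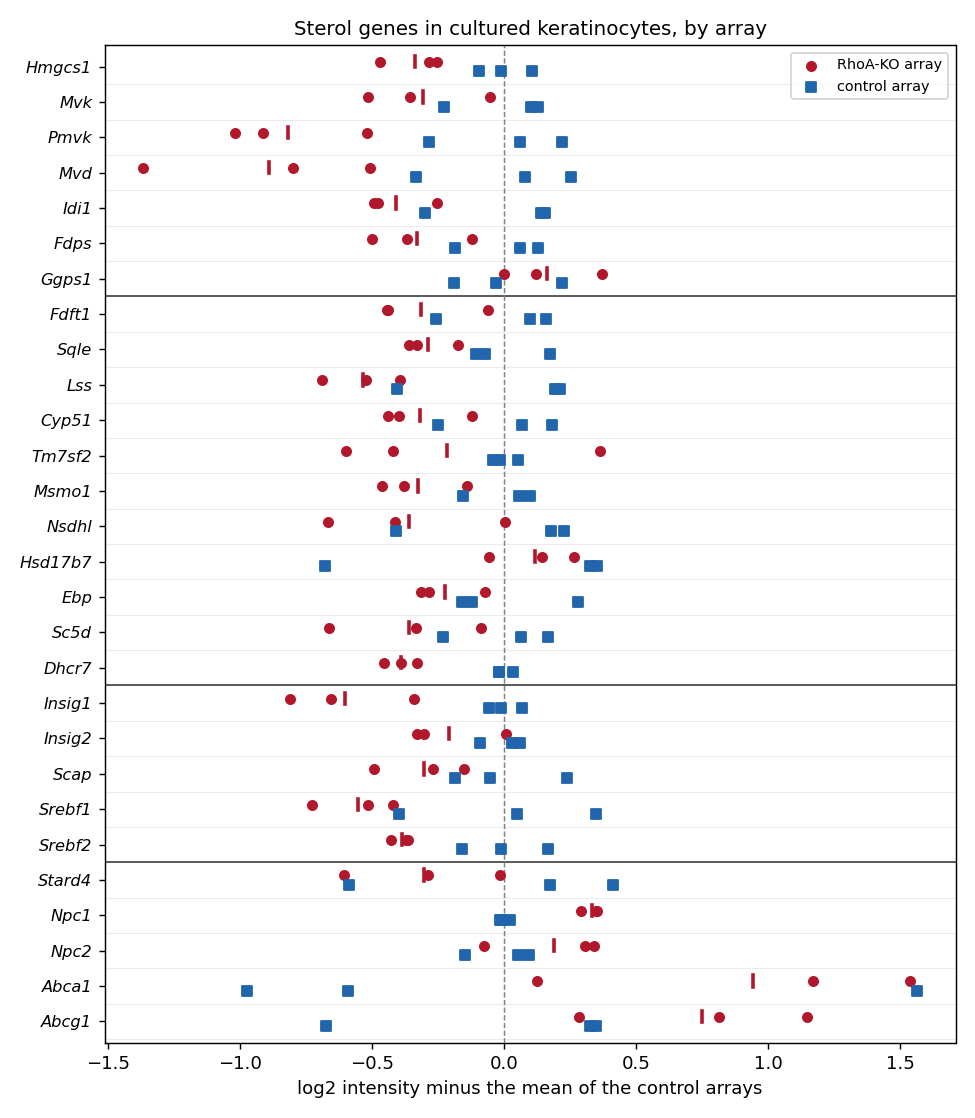
Log2 intensity of each sterol gene on the 6 cultured arrays, as the difference from the mean of the 3 control arrays (horizontal axis), by gene in pathway order (vertical axis), with circles for RhoA-KO arrays, squares for control arrays, ticks for RhoA-KO means and lines between the 4 groups of genes. RhoA-KO means lie left of 0 for 22 of 28 genes, lowest for Mvd at -0.89, and right of 0 for 4 of the 5 transport genes.

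Deposited intensities, the brightness summary of a probe set, lay on separate scales in the 2 conditions. The array medians were 7.75 to 8 on the cultured arrays and 64.1 to 64.8 on the fresh arrays, so levels were compared only within a condition. The probe set that stands for Rhoa itself read 8209, 7839 and 7628 on RhoA-KO arrays, against 11249, 9879 and 9240.2 on control arrays in cultured cells, with no overlap (log2 change -0.35 ± 0.083 (SE), limma adjusted p = 0.156). In fresh cells it read 4398 and 4296 on the arrays labelled RhoA-KO, against 3526 and 4059 on control arrays, so the fresh labels were not borne out by a lower Rhoa signal (log2 change 0.20 ± 0.092 (SE), limma adjusted p = 0.434). Whether this probe set falls inside the floxed stretch is not stated in the labels or files used here, and if it falls outside, it checks nothing. The fresh arrays are therefore called by their label below. In whole-population RNA, fewer cells of a type and less RNA per cell cannot be told apart.

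Markers of the cell state also differed between the cultured groups. The summed intensity of 6 proliferation markers ranged over 63106 to 68386 on RhoA-KO arrays and 80074 to 84257 on control arrays, and that of 7 suprabasal keratinocyte markers over 52153 to 60153 on RhoA-KO arrays and 38133 to 45134 on control arrays. Summed intensities of 6 basal keratinocyte markers overlapped, at 190789 to 204187 on RhoA-KO arrays and 167144 to 204306 on control arrays, and all 6 were above the array median on every array, as the label keratinocyte requires. None of the 6 Langerhans cell markers and none of the 3 endothelial markers passed the median of any cultured array, and 2 to 3 of 8 measured sebaceous gland markers did. Sums of 5 melanocyte markers were 420, 781 and 1316 on RhoA-KO arrays, against 219, 477 and 263 on control arrays, with overlap, and 4 to 5 of them were above the array median. Of 3 measured adipocyte markers at most 1 was above it: Fabp4, a fatty acid binding protein, read 38.2, 248 and 402 on RhoA-KO arrays, against 8.69, 8.16 and 7.18 on control arrays, without overlap (limma adjusted p = 0.124). The part of the cell state and of these other cell types in the sterol gene values was not tested.

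In cultured keratinocytes most sterol genes read lower in RhoA-KO cells. Of the 28 genes, 22 were lower and 6 higher, with a median log2 change of -0.32 and a range of -0.89 to 0.95. None passed an adjusted p of 0.05 in limma over all 22682 probe sets tested, where 62 (0.273%) did, with 0.0926% lower. At an unadjusted p under 0.05 there were 12 lower genes and 1 higher gene, against 15.6% of all probe sets in either direction, 8.49% lower and 7.16% higher. These 13 genes became 6 without control array 3, where the share of all probe sets was 10.8%. They became 7 without RhoA-KO array 3, where it was 10.6%. The groups did not overlap for 8 lower genes and 1 higher gene, where 22.3% of all probe sets had no overlap, 12.2% lower and 10.1% higher. Over all probe sets tested 52.8% were lower and the median was -0.0068. All 28 representative probe sets passed the filter on dim signals, as did 55 of the 64 member probe sets, and of the 55, 43 were lower and 12 higher. Of these 55, 21 had an unadjusted p under 0.05 in limma, against 15.6% of all probe sets. All members that share a pathway are measured on the same 6 arrays, so their values are not independent of each other.

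The plot of cultured values by gene shows each RhoA-KO array against its control arrays. The lowest RhoA-KO means belong to Pmvk and Mvd, and the RhoA-KO means to the right of 0 are mostly those of transport genes. Array by array, the mean deviation of the 18 measured enzyme genes from the control mean was -0.49, -0.12 and -0.41 on the RhoA-KO arrays and -0.20, 0.081 and 0.12 on the control arrays, in log2. RhoA-KO array 2 thus sat above control array 1, and the enzyme sets of the groups overlapped. The regulators did not overlap, with -0.55, -0.28 and -0.41 on RhoA-KO arrays against 0.11, -0.14 and 0.026 on control arrays.

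The 7 measured mevalonate genes had 6 lower members, a median log2 change of -0.34 and 5 members at an unadjusted p under 0.05. Hmgcs1 encodes the synthase that makes HMG-CoA at the head of the mevalonate route, and its intensity was 23298, 23786 and 20456 on RhoA-KO arrays, against 26518, 28168 and 30504 on control arrays. All 3 RhoA-KO arrays read below all control arrays, with means of 22514 ± 1798 on RhoA-KO and 28397 ± 2003 on control arrays (SD, n = 3 each) and a log2 change of -0.34 ± 0.08 (SE; limma adjusted p = 0.161). Pmvk, phosphomevalonate kinase, showed the same separation at a larger size. Its intensity was 816, 1152 and 877 on RhoA-KO arrays, against 1357, 1724 and 1924 on control arrays, or 948 ± 179 on RhoA-KO and 1668 ± 288 on control arrays on average (SD, n = 3 each). The log2 change of Pmvk was -0.82 ± 0.18 (SE; limma adjusted p = 0.151, and 0.0448 in a fit over all 10 arrays), a ratio of 0.568. Mvd, the decarboxylase that makes isopentenyl diphosphate, had the lowest fitted value of the set. Its intensity was 453, 821 and 670.5 on RhoA-KO arrays, against 928, 1233 and 1392 on control arrays, again without overlap, and its log2 change was -0.89 ± 0.26 (SE; limma adjusted p = 0.209).

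The isomerase and prenyl chain steps came out lower with overlapping groups. Idi1, which interconverts the isoprene units, read 12215, 14427 and 12372 on RhoA-KO arrays, against 13986, 19178 and 18978 on control arrays, so that control array 1 lay among the RhoA-KO arrays (log2 change -0.41 ± 0.14 (SE); limma adjusted p = 0.269). Fdps, which makes farnesyl diphosphate, read 13232, 15669 and 12050.2 on RhoA-KO arrays, against 14989, 17771 and 18627 on control arrays, with the same control array low (log2 change -0.33 ± 0.13 (SE); limma adjusted p = 0.295). Mvk, mevalonate kinase, had overlapping groups and a log2 change of -0.31 ± 0.16 (SE), between -0.44 and -0.20 with 1 array left out. Ggps1, which makes the geranylgeranyl diphosphate of the side branch, was the mevalonate gene on the other side of 0, with 381 ± 51 on RhoA-KO and 341 ± 49.1 on control arrays (SD, n = 3 each) and a log2 change of 0.16 ± 0.15 (SE), between 0.061 and 0.27 with 1 array left out. Its sign was not the same in every probe set, and the mean of its probe sets gave -0.024.

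Of the 11 genes between squalene and cholesterol, 10 were lower, with a median log2 change of -0.32 and 4 at an unadjusted p under 0.05. Dhcr7, the reductase of the last step of one arm of the pathway, had the smallest p of all 28 genes. Its intensity was 1923, 1765 and 1847 on RhoA-KO arrays, against 2388, 2387 and 2479 on control arrays, with little spread within either group. The means were 1845 ± 78.9 on RhoA-KO and 2418 ± 52.7 on control arrays (SD, n = 3 each), and the log2 change was -0.39 ± 0.061 (SE; limma adjusted p = 0.0924), which passed 0.05 under 2 other models (adjusted p = 0.0390 with array weights and 0.0227 in a fit over all 10 arrays). Sqle, the epoxidase that is a control point of the pathway, also separated the groups. It read 5229, 5834 and 5123 on RhoA-KO arrays, against 6259.6, 6114 and 7429 on control arrays, and its log2 change was -0.29 ± 0.097 (SE; limma adjusted p = 0.254).

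Lss and Msmo1 were lower with 1 control array close to the RhoA-KO arrays. Lss encodes lanosterol synthase, which closes the sterol ring, and read 3479, 3804 and 3098 on RhoA-KO arrays, against 3771, 5714 and 5790.2 on control arrays (log2 change -0.54 ± 0.19 (SE); limma adjusted p = 0.267). Msmo1, which removes methyl groups at carbon 4 of the sterol ring, read 16212, 19145 and 15299 on RhoA-KO arrays, against 18926, 22555 and 21945 on control arrays (log2 change -0.33 ± 0.11 (SE); limma adjusted p = 0.249). In both, control array 1 was the low control. The other members gave log2 changes of -0.31 for Fdft1, squalene synthase, -0.32 for Cyp51, the lanosterol demethylase, -0.36 for Nsdhl and -0.36 for Sc5d, both later sterol-modifying enzymes, -0.22 for the isomerase Ebp and -0.22 for the sterol reductase Tm7sf2. Hsd17b7, the keto-reductase partner of Nsdhl, was the member above 0, at 0.12 ± 0.29 (SE), and turned to -0.22 without control array 1. The tested probe sets of Hsd17b7 did not all give the same sign. The groups of these 7 genes overlapped. With 1 array left out, Tm7sf2 lay between -0.51 (without RhoA-KO array 2) and -0.026 (without RhoA-KO array 1), Ebp between -0.30 and -0.084 (without control array 1), Nsdhl between -0.56 and -0.20, and Sc5d between -0.50 and -0.21.

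All 5 regulators were lower in RhoA-KO cultures, with a median log2 change of -0.39 and 3 at an unadjusted p under 0.05. Insig1 encodes a sterol-responsive brake on SREBP processing that is itself an SREBP target. Its intensity was 1004, 1392 and 1120.3 on RhoA-KO arrays, against 1847, 1749.6 and 1694 on control arrays, without overlap, and its log2 change was -0.60 ± 0.13 (SE; limma adjusted p = 0.139, and 0.0348 in the fit over all 10 arrays). Srebf2 encodes SREBP2, the main activator of the pathway, and read 1459.9, 1467 and 1404 on RhoA-KO arrays, against 2121, 1692 and 1875 on control arrays. Its RhoA-KO arrays lay within a narrow band below every control array, with a log2 change of -0.39 ± 0.096 (SE; limma adjusted p = 0.17). Srebf1, whose products drive mainly fatty acid synthesis, read 1075, 1328 and 1244 on RhoA-KO arrays, against 2265, 1348 and 1841 on control arrays. The gap in Srebf1 was narrow, since control array 2 lay just above the highest RhoA-KO array (log2 change -0.55 ± 0.20 (SE); limma adjusted p = 0.28).

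Scap and Insig2 had smaller differences and overlapping groups. Scap, the sterol sensor and escort, read 3098, 3612 and 3924 on RhoA-KO arrays, against 4193, 3832 and 5132 on control arrays (log2 change -0.30 ± 0.14 (SE); limma adjusted p = 0.359). Insig2, the second INSIG protein, read 1178, 1489.7 and 1199 on RhoA-KO arrays, against 1511, 1546 and 1390.3 on control arrays (log2 change -0.21 ± 0.11 (SE); limma adjusted p = 0.426). In Insig2 the probe sets tested did not all give the same sign. With 1 array left out, Scap lay between -0.40 and -0.18 and Insig2 between -0.32 and -0.15.

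The 5 transport and efflux genes did not share the direction of the enzymes: 1 was lower and 4 were higher, with a median log2 change of 0.33. Npc1, the membrane protein that exports cholesterol from lysosomes, was the gene with separated groups. It read 461, 462 and 444 on RhoA-KO arrays, against 359, 359.6 and 368 on control arrays, with very little spread, and its log2 change was 0.33 ± 0.08 (SE; limma adjusted p = 0.161). Npc2, its soluble partner, had a log2 change of 0.19 ± 0.13 (SE) with overlapping groups, between 0.12 and 0.32 with 1 array left out.

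The efflux pumps were dim and variable in culture. Abca1, which loads cholesterol onto lipid-poor apolipoprotein, read 85.5, 176 and 228 on RhoA-KO arrays, against 232, 39.9 and 52.1 on control arrays, so that the highest array was a control (log2 change 0.95 ± 0.74 (SE); limma adjusted p = 0.586). Leaving out 1 array at a time moved this value between 0.46 and 1.73, the highest without control array 1. Abcg1, the pump that loads high-density lipoprotein, read 203, 294 and 371 on RhoA-KO arrays, against 105, 209 and 213 on control arrays (log2 change 0.75 ± 0.36 (SE); limma adjusted p = 0.373), and its lowest RhoA-KO array lay below 2 control arrays. That value lay between 0.41 (without control array 1) and 0.98 (without RhoA-KO array 1). Stard4, a soluble sterol carrier induced by SREBP2, was the lower member of the group. It read 2346, 3537 and 2929 on RhoA-KO arrays, against 2379, 4754 and 4038 on control arrays (log2 change -0.30 ± 0.29 (SE); limma adjusted p = 0.651), and its value lay between -0.60 without control array 1 and -0.098 without control array 2. Another, dimmer Stard4 probe set gave -0.74 without overlap (limma adjusted p = 0.228).

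**Figure D2:**
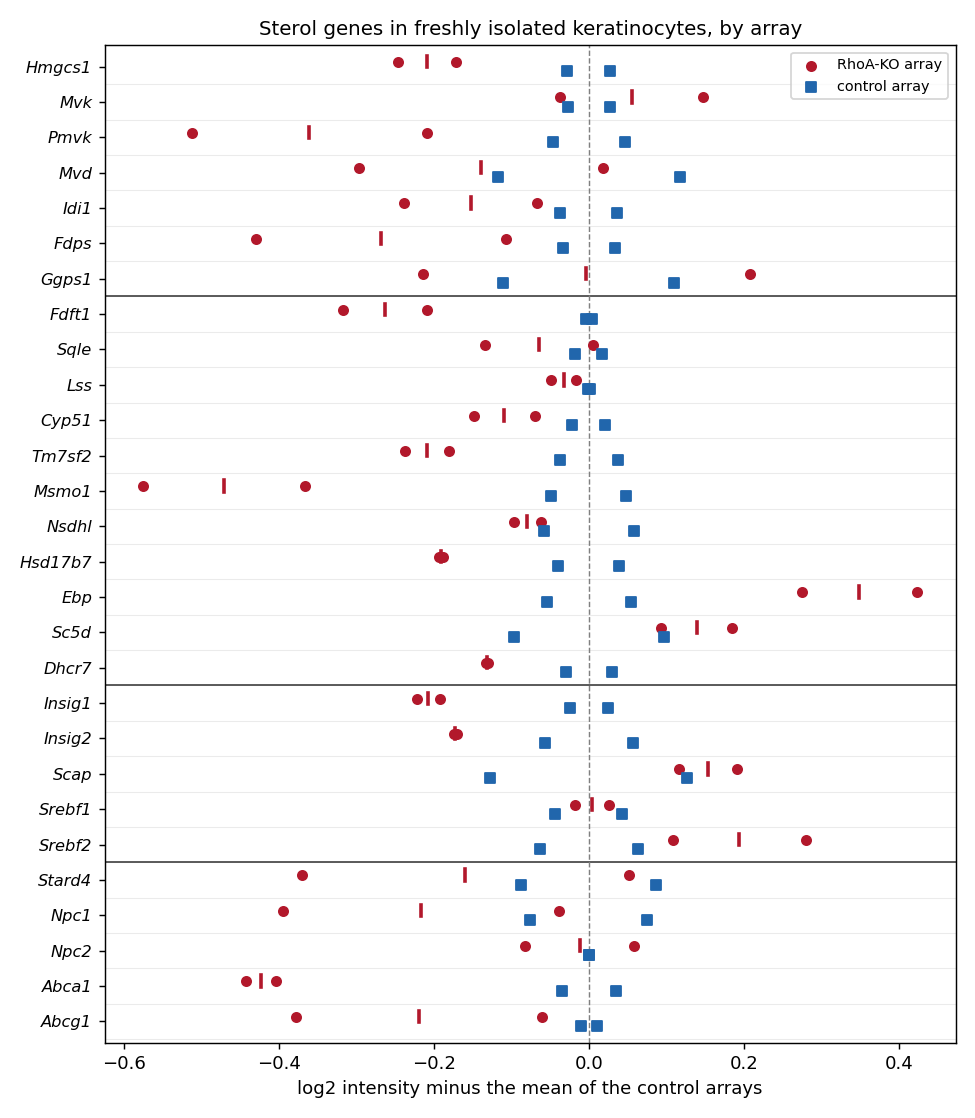
Log2 intensity of each sterol gene on the 4 fresh arrays, as the difference from the mean of the 2 control arrays (horizontal axis), by gene in pathway order (vertical axis), with circles for arrays labelled RhoA-KO, squares for control arrays and ticks for RhoA-KO means. The horizontal range is narrower than in culture: RhoA-KO means run between -0.47 for Msmo1 and 0.35 for Ebp.

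In freshly isolated keratinocytes the median difference lay closer to 0 than in culture, although Msmo1, Ebp and Hsd17b7 were farther from 0. Of the 28 genes, 22 were lower and 6 higher on the arrays labelled RhoA-KO, with a median log2 change of -0.15 and a range of -0.47 to 0.35. None passed an adjusted p of 0.05, and no probe set of the 22893 tested did (0%; 12.9% had an unadjusted p under 0.05 in limma). At an unadjusted p under 0.05 there were 5 lower genes and 1 higher gene, against 6.89% lower and 6.01% higher among all probe sets. These genes are read by their brightest probe set. Of all 55 member probe sets tested in fresh cells, 8 had an unadjusted p under 0.05 in limma, against the 12.9% of all probe sets. The groups did not overlap for 16 lower and 2 higher genes, but with 2 arrays a group 46.9% of all probe sets had no overlap, 23.5% lower and 23.5% higher. Over all probe sets 50.1% were lower.

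KO-labelled array 2 of the fresh cells stood apart in hair follicle markers: 7 of them summed to 391 and 31276 on the arrays labelled RhoA-KO, against 479 and 1069 on control arrays. Other cell types differed too, with 5 melanocyte markers at 890 and 4077 against 457 and 590 in controls, 8 measured sebaceous gland markers at 20045 and 22413 against 15401 and 17237 in controls, and 6 Langerhans cell markers at 6818 and 14737 against 17845 and 22384 in controls, each pair given from low to high. The sebaceous list was not higher as a whole: its mean log2 deviation was -0.093 and -0.16 on the arrays labelled RhoA-KO, against 0.11 and -0.11 on control arrays. The adipocyte markers summed to 85.1 and 1714 on the arrays labelled RhoA-KO, against 60.7 and 91.6 on control arrays. Sums of 6 fibroblast markers were 445 and 1344 on the arrays labelled RhoA-KO, against 278 and 303 on control arrays. Proliferation markers summed to 12986 and 13760 on the arrays labelled RhoA-KO and to 9034 and 11375 on control arrays. The part of these cells in the fresh sterol gene values was not tested. Without KO-labelled array 2, 18 genes were lower and 10 higher, and the median log2 change was -0.066.

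Among the mevalonate genes 6 of 7 were lower in fresh cells, with a median log2 change of -0.15. Hmgcs1 read 8712 and 9174 on the arrays labelled RhoA-KO, against 10139 and 10537 on control arrays, a log2 change of -0.21 ± 0.061 (SE; limma adjusted p = 0.317) that was -0.25 without KO-labelled array 2. Pmvk read 1075 and 872 on the arrays labelled RhoA-KO, against 1204 and 1284 on control arrays, a log2 change of -0.36 ± 0.13 (SE; limma adjusted p = 0.361), or -0.21 without KO-labelled array 2. Both genes kept the groups apart, but the lower Pmvk array was the one with high follicle markers. The log2 changes of the other 5 were -0.27 for Fdps, -0.15 for Idi1, -0.14 for Mvd, -0.0033 for Ggps1 and 0.055 for Mvk. Without KO-labelled array 2 Fdps was -0.11 and Idi1 -0.24, and without KO-labelled array 1 they were -0.43 and -0.067. The signs of Mvk, Mvd and Ggps1 turned when 1 array was left out, and the tested probe sets of Ggps1 did not all give the same sign.

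Of the genes between squalene and cholesterol, 9 of 11 were lower in fresh cells, with a median log2 change of -0.11. Msmo1 had the lowest value of all members, with 2179 and 1886 on the arrays labelled RhoA-KO, against 2716 and 2905 on control arrays (log2 change -0.47 ± 0.10 (SE); limma adjusted p = 0.287). Without KO-labelled array 2 it was -0.37. Without KO-labelled array 1, which leaves only the KO-labelled array with high follicle markers, it was -0.57. Fdft1, which commits farnesyl diphosphate to sterols, read 4249 and 3942 on the arrays labelled RhoA-KO, against 4926 and 4899 on control arrays (log2 change -0.26 ± 0.073 (SE); limma adjusted p = 0.312). Ebp went against most of its group, with 1869.7 and 1687 on the arrays labelled RhoA-KO, against 1448 and 1343 on control arrays (log2 change 0.35 ± 0.10 (SE); limma adjusted p = 0.317), and it was higher also without KO-labelled array 2 (0.42). The remaining 8 had log2 changes between -0.21 for Tm7sf2 and 0.14 for Sc5d, with Dhcr7 at -0.13, Hsd17b7 at -0.19, Cyp51 at -0.11, Nsdhl at -0.079, Sqle at -0.064 and Lss at -0.032.

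The fresh regulators did not share a direction, with 2 lower, 3 higher and a median log2 change of 0.0042. Insig1 read 1471 and 1441 on the arrays labelled RhoA-KO, against 1710.2 and 1652 on control arrays (log2 change -0.21 ± 0.086 (SE); limma adjusted p = 0.4). Insig2 read 763 and 765 on the arrays labelled RhoA-KO, against 828 and 895 on control arrays (log2 change -0.17 ± 0.10 (SE); limma adjusted p = 0.527). Both INSIG genes were thus below the controls without overlap by these probe sets, but another Insig2 probe set gave 0.071. Srebf2 lay on the other side, with 1146 and 1290.0 on the arrays labelled RhoA-KO, against 1109.8 and 1017 on control arrays (log2 change 0.19 ± 0.11 (SE); limma adjusted p = 0.513), or 0.11 without KO-labelled array 2. Srebf1 read 4183 and 4059 on the arrays labelled RhoA-KO, against 4233 and 3987 on control arrays, and its groups overlapped with a log2 change of 0.0042 ± 0.073 (SE). Scap also overlapped, at 4222 and 4011 on the arrays labelled RhoA-KO, against 4040.4 and 3388 on control arrays (log2 change 0.15 ± 0.11 (SE)).

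All 5 transport and efflux genes were lower on the fresh arrays labelled RhoA-KO, with a median log2 change of -0.22. Abca1 had the smallest p of all members, with 1716 and 1671 on the arrays labelled RhoA-KO, against 2214 and 2325 on control arrays (log2 change -0.42 ± 0.084 (SE); limma adjusted p = 0.275). Without KO-labelled array 2 it was -0.40. Abcg1 read 884 and 709 on the arrays labelled RhoA-KO, against 915 and 928 on control arrays, a log2 change of -0.22 ± 0.14 (SE) that was -0.061 without KO-labelled array 2. Stard4 read 503 and 375 on the arrays labelled RhoA-KO, against 515 and 457 on control arrays, with overlap. Its log2 change was -0.16 ± 0.18 (SE) and turned to 0.052 without KO-labelled array 2. Npc1 and Npc2 overlapped, with log2 changes of -0.22 and -0.012, or -0.039 and 0.059 without KO-labelled array 2. The tested probe sets of Npc2 did not all give the same sign.

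**Figure D3:**
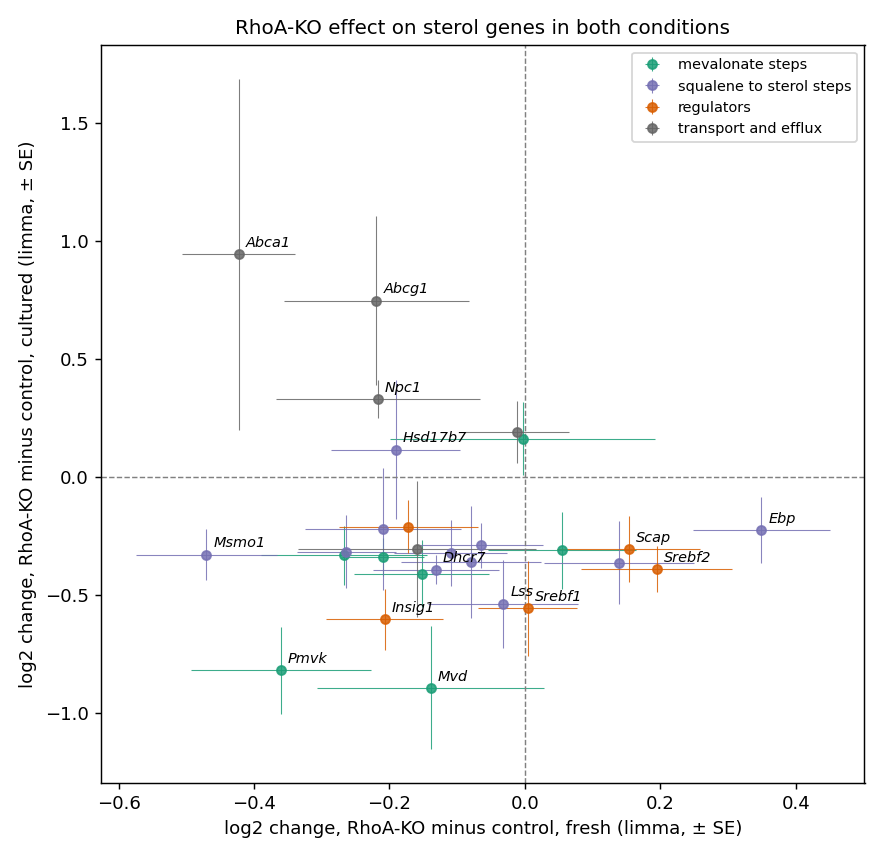
Log2 change, RhoA-KO minus control, of each of the 28 genes in cultured cells (vertical axis) and in fresh cells (horizontal axis), with limma standard errors as bars and colours for the 4 groups of genes. The lower left part holds 16 genes, the upper right none, and the Abca1 bar in culture is the longest.

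Set side by side, 16 genes were lower in both conditions, none was higher in both, 6 were lower in culture and higher in fresh cells, and 6 were higher in culture and lower in fresh cells. The difference of the effects, cultured minus fresh, was tested for each gene from both limma fits. No member passed an adjusted p of 0.05, where 367 of 18773 probe sets tested in both conditions did (1.95%). The number of members was 1 with array weights (Srebf2). It was 2 when cultured control array 1 (Lss and Abca1) or cultured control array 2 (Srebf1 and Srebf2) was left out. The share of all probe sets past the threshold was not taken in these settings, so such calls say nothing particular to the members. At an unadjusted p under 0.05 there were 9 members below 0 and 2 above, against 18.9% of all probe sets in either direction and 11.1% below 0. Conditions also differ in the number of arrays, the scale of the values and the cell types present, and the part of these in the differences was not tested.

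Srebf2 had the smallest p: lower without overlap in cultured RhoA-KO cells and higher without overlap on the fresh arrays labelled RhoA-KO, with a difference of -0.58 ± 0.15 (SE; limma adjusted p = 0.0683). Ebp, at -0.57 ± 0.17 (SE; limma adjusted p = 0.112), and Npc1, at 0.55 ± 0.17 (SE; limma adjusted p = 0.12), followed. The Ebp difference combined a lower cultured with a higher fresh value, and the Npc1 difference combined a higher cultured with a lower fresh value. Further members at an unadjusted p under 0.05 were Mvd (-0.75), Srebf1 (-0.56), Lss (-0.50), Sc5d (-0.50), Scap (-0.46), Insig1 (-0.39) and Dhcr7 (-0.26) below 0 and Abcg1 (0.97) above 0. Hmgcs1, Fdps, Fdft1 and Msmo1 had differences between -0.13 and 0.14, with SEs of 0.10 to 0.18.

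**Figure D4:**
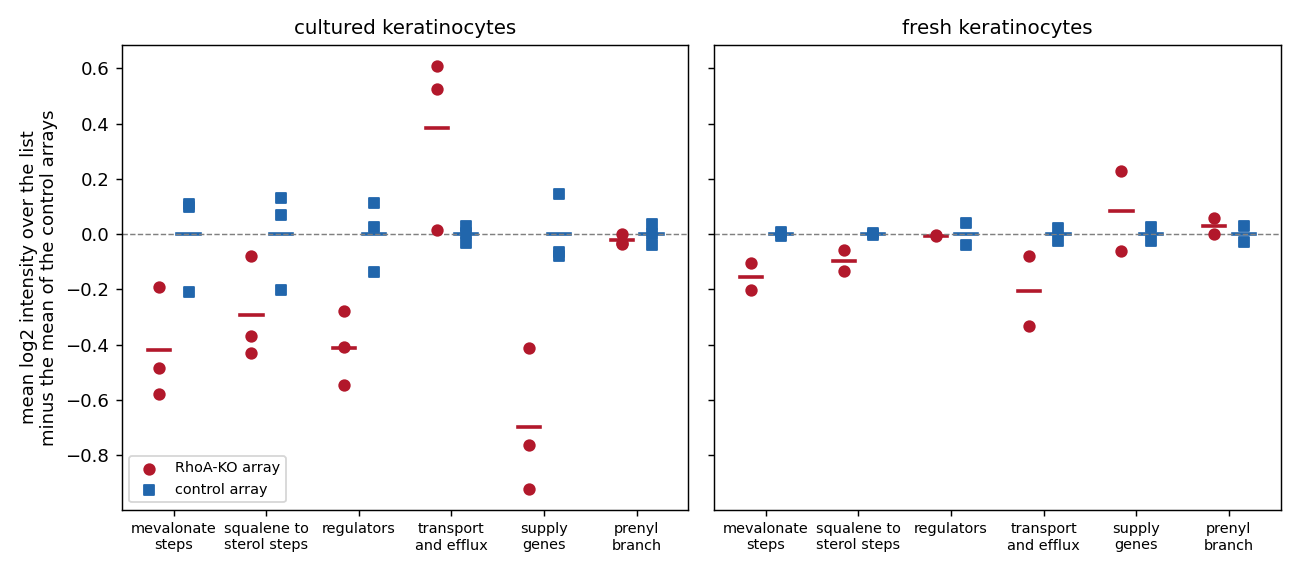
Mean log2 intensity over each list of genes, as the difference from the mean of the control arrays of the condition (vertical axis), for cultured (left) and fresh (right) arrays, with circles for RhoA-KO arrays, squares for control arrays and bars for group means. In culture the supply genes read -0.92, -0.41 and -0.76 on RhoA-KO arrays, below all control arrays, while the prenyl branch lies near 0 in both conditions.

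Of the neighbouring pathways, the 10 genes linked to SREBP, mostly of acetyl-CoA supply, fatty acid and phospholipid synthesis, showed the same direction as the enzymes in culture. The list was chosen with earlier results of these data known, so this shared direction is a description and not separate support. All 10, of which Sc5d is also a member above, were lower in cultured RhoA-KO cells, with a median log2 change of -0.42, none at an adjusted p of 0.05 and 5 at an unadjusted p under 0.05, where 8.49% of all probe sets were lower at that level. Elovl6, the elongase that makes stearate, read 338, 661 and 476 on RhoA-KO arrays, against 1023, 1253 and 1618 on control arrays (log2 change -1.43 ± 0.29 (SE); limma adjusted p = 0.124). In fresh cells Elovl6 read 1965 and 1989 on the arrays labelled RhoA-KO, against 2218 and 1874 on control arrays, and the difference of the effects was -1.38 ± 0.31 (SE; limma adjusted p = 0.0468). That difference passed the threshold in 9 of 20 other settings, with adjusted p between 0.0192 and 0.179. Pcyt2, of phosphatidylethanolamine synthesis, averaged 538 ± 72.8 in cultured RhoA-KO cells and 933 ± 88.5 in controls, and Fads2, a fatty acid desaturase, 96.6 ± 34.8 on RhoA-KO and 265 ± 61.1 on control arrays (SD, n = 3 each). Their log2 changes were -0.80 and -1.49, with limma adjusted p-values of 0.0979 and 0.121. In fresh cells 4 of the 9 genes that passed the filter were lower and 5 higher, led by Acat1, the mitochondrial thiolase, at 0.32 (limma adjusted p = 0.339).

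The prenyl branch, which attaches farnesyl and geranylgeranyl lipids and makes dolichol and ubiquinone, was split. Of its 15 measured genes, Ggps1 among them, 7 were lower and 8 higher in culture with none at an unadjusted p under 0.05, and 6 were lower and 9 higher in fresh cells with 1 higher at that level. The list of sterol sensing, uptake, esterification and transport genes, 29 of 33 measured, was split as well. In culture 9 were lower and 16 higher of the 25 that passed the filter, with 1 lower and 2 higher at an unadjusted p under 0.05, a share of 12.0% against 15.6% of all probe sets. The lower one was Tmem97, a sterol-regulated partner of NPC1, with means of 1351 ± 115 on RhoA-KO and 1874 ± 182 on control arrays (SD, n = 3 each; log2 change -0.47). In fresh cells 13 of 27 were lower and 14 higher, with 1 lower and 3 higher at that level, 14.8% against 12.9% of all probe sets. Ch25h, which makes 25-hydroxycholesterol, read 368 and 266 on the arrays labelled RhoA-KO, against 708 and 846 on control arrays (log2 change -1.31 ± 0.19 (SE); limma adjusted p = 0.242), and it stayed below the array median in culture. Vldlr, a lipoprotein receptor, and Sult2b1, the sulphotransferase that makes cholesterol sulphate in epidermis, had fresh log2 changes of 0.54 and 0.38, with limma adjusted p-values of 0.303 and 0.331. No gene of these 3 lists had an unadjusted p under 0.05 in both conditions.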

How the data were processed

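Gene expression was measured in 10 samples, 1 Affymetrix array each. The authors deposited 1 linear intensity per probe set and array; the submitters' processing notes name MAS5; neither a version nor a scaling target is given in the sources used here. Fresh and cultured intensities appear to have been scaled separately: 53.9% to 54.3% of cultured values but 0.102% to 0.140% of fresh values lay below 10.

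Genes were named by the platform annotation, with old symbols replaced by way of their Entrez identifiers in a RefSeq table of GRCm38.p6: 34945 probe sets had 1 symbol, 932 several and 9160 none here. Each gene was read by its brightest probe set (mean log2 intensity of the 10 arrays). Members and lists were chosen with earlier results of these data known.

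No offset was added before log2. A probe set was tested in a condition if it exceeded the median of its array on 2 or more arrays there. Tests used limma 3.58.1 in R 4.3.3 (lmFit, eBayes with trend, 2-sided) with a fit per condition and Benjamini-Hochberg adjustment over all of them at 0.05. The difference of the effects used both fits and their combined standard error. Replicate numbers were not treated as pairs, because deviations of same-numbered cultured arrays correlated at 0.322, 0.0809 and 0.249 and those of fresh arrays at -0.0548. All members are named. Array values are given where the unadjusted p was under 0.05, or where the log2 change was at least 0.5 in size without overlap, and in both conditions for the regulators, Abca1, Abcg1 and Stard4. Of the other lists, the 4 genes with the smallest p in each condition are named. The code was tested on simulated data. Alternatives are in the closing section.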

Additional observations from a re-analysis of the deposited data

Results flagged for a closer look

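The difference between the KO effects in cultured and fresh keratinocytes stood out for 3 genes. For Srebf2, every cultured RhoA-KO array was below every control array and every fresh array labelled RhoA-KO was above every control array, and the difference was -0.58 in log2, with an adjusted p of 0.0683 from the limma fits, which missed the threshold. For Elovl6 the difference was -1.38 and passed it (adjusted p = 0.0468), but did so in only 9 of 20 other settings, which were run for this gene after seeing its value, and leaving out 1 array at a time gave adjusted p-values on both sides of 0.05. For Rhoa itself, lower in culture and higher on the fresh arrays labelled RhoA-KO, the difference was -0.56 (adjusted p = 0.0477 from the limma fits). Another tested Rhoa probe set gave a difference of -0.55 that missed the threshold (adjusted p = 0.12 from the limma fits). The Rhoa difference was not checked in the other settings.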

How the results depend on the processing

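Across the alternative settings and left-out arrays, 470 of 476 checks of single genes in culture and 406 of 420 in fresh cells kept their direction and their side of the threshold. Much of this was fixed in advance. The filter, trend, block and 10-array settings leave each log2 change as it is, so they could not turn a sign. No member had passed the threshold in the main fits, so keeping its side mostly means staying uncalled. The signs that turned were those of Ggps1 in culture with the mean of its probe sets (-0.024), Hsd17b7 in culture without control array 1, and, in fresh cells, Ggps1 with 75th percentile centring (0.0034), quantile normalization (0.0029), its brightest fresh probe set (0.21), without control array 1 (0.11) and without KO-labelled array 2, Srebf1 with quantile normalization (-0.0065), without control array 2 and without KO-labelled array 1 (-0.017), Mvk and Mvd without KO-labelled array 1, and Sqle, Stard4 and Npc2 without KO-labelled array 2. With 1 array left out, these genes ranged from -0.22 to 0.29 for Hsd17b7 in culture, and in fresh cells from -0.21 to 0.21 for Ggps1, -0.039 to 0.047 for Srebf1, -0.037 to 0.15 for Mvk, -0.30 to 0.018 for Mvd, -0.13 to 0.0059 for Sqle, -0.37 to 0.052 for Stard4 and -0.082 to 0.059 for Npc2. The cause was not tested. In culture the number of members past the adjusted threshold was 1 with array weights (Dhcr7) and 3 in a fit over all 10 arrays (Pmvk, Dhcr7 and Insig1). Members at an unadjusted p under 0.05 numbered 20 with the replicate number as a block, against 18.3% of all probe sets. The block changed no call by adjusted p in either condition. When 1 cultured array was left out, the members at that level numbered 6 to 19. They were 6 without control array 3 (10.8% of all probe sets) and 7 without RhoA-KO array 3 (10.6%). They were 19 without control array 1 (16.3%) and 19 without RhoA-KO array 2 (11.6%). In fresh cells that number was 3 without the trend, 3 in the 10-array fit and 2 to 8 with 1 array left out; 0 to 1 members passed the adjusted threshold, the median log2 change was -0.16 to -0.066, and 18 to 23 members were lower. In culture, with 1 array left out, the median was -0.42 to -0.23 and 22 to 23 members were lower. Of the differences between conditions, 1 passed with array weights (Srebf2) and 1 with the replicate block (Abcg1). With 1 cultured array left out 0 to 2 passed: Lss and Abca1 without control array 1, and Srebf1 and Srebf2 without control array 2. The share of all probe sets that passed was not taken in these settings. Over all probe sets the cultured calls, 62 as reported, numbered 2 with no filter, 7 without the trend, 17 with the block, 128 with 75th percentile centring, 299 with array weights, 547 in the 10-array fit and 0 to 95 with 1 array left out; the fresh calls, 0 as reported, numbered 447 in the 10-array fit, 945 without KO-labelled array 1 and 11 without KO-labelled array 2.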

Other observations

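In control cells the rank of the sterol genes within an array differed between culture and tissue. Since the scales differ, the percentile of each gene among all probe sets of its array is given, as a description with no test. Of the 28 genes, 13 ranked higher on every cultured control array than on every fresh one, 12 ranked lower and 3 overlapped. The same counts over all probe sets were not taken, so these say nothing particular to the sterol genes. The higher ones were mostly synthesis enzymes, such as Lss, with a median percentile of 95.4 in cultured and 78.1 in fresh controls, and the carrier Stard4, at 93.9 and 80.7. Other synthesis enzymes ranked lower in culture: Hmgcs1, Fdft1, Pmvk, Mvk, at 80.8 and 89.2, and Tm7sf2, at 64.4 and 77.8. Those lower in culture also included Abca1, at 63.1 in cultured and 95.6 in fresh controls, Abcg1, at 71.5 and 88.4, Npc1, at 75.8 and 89.5, and Srebf1, at 89.3 and 98.0. Probe sets at the floor of the cultured scale bear on these ranks, and their part was not tested.

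Over all 10 arrays, the genes whose deviations from the control mean of their condition correlated best with those of Hmgcs1 were Sema5a (Pearson r = 0.963), Vstm5 (0.950), Pknox1 (0.947), Ip6k1 (0.941) and Nampt (0.937), out of 9800 genes compared. No sterol gene was among them, and the nearest were Pmvk at rank 35 (0.895), Idi1 at rank 53 (0.876) and Dhcr7 at rank 60 (0.869). The points share the same 10 libraries and their control means.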
